A study of Mus musculus with 10 samples.

Results

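A group of 10 genes of the fibroblast matrix was followed in gastrocnemius muscle, namely the small leucine-rich proteoglycans Dcn, Bgn, Lum, Fmod, Ogn and Prelp, and the matrix genes Dpt, Sparc, Fbn1 and Postn. They were chosen by name and are 10 of the 37947 gene symbols in the expression values. Each gene was represented by the transcript that averaged highest across the 10 libraries, out of 34 transcripts listed for the 10 genes, of which 32 were above 0 in at least 1 library. Poly-A RNA came from C57BL/6 male mice, 5 of them young (6 months) and 5 aged (24 months), with 1 library for each mouse and no treatment in either group. Values are log2 FPKM, fragments per kilobase of transcript and per sequencing depth, and an FPKM under 1 is listed as 0.

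Small leucine-rich proteoglycans are short secreted proteins that bind collagen fibrils and set how the fibrils assemble and space, and most of them carry chondroitin, dermatan or keratan sulfate chains. In skeletal muscle they are made mainly by fibroblasts of the connective tissue sheaths and by tendon cells, and decorin and biglycan also bind growth factors of the TGF-beta family. In aging muscle this matrix is known to thicken and stiffen between the fibers.

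Several of the genes lie in clusters of the family. On mouse chromosome 10 (GRCm38) Dcn (97479500 to 97518163) is followed by Lum (97565501 to 97572703) after 47.3 kb, and then by Kera. Ogn on chromosome 13 (49608015 to 49624501) is preceded by Ecm2, Aspn and Omd, with Omd 15.4 kb away. On chromosome 1, Prelp (133910304 to 133930102) lies 107.2 kb from Fmod (134037254 to 134048280) and is preceded by Optc at 0.6 kb. Bgn is on chromosome X (73483601 to 73495936), Dpt on chromosome 1, Sparc on chromosome 11, Fbn1 on chromosome 2 and Postn on chromosome 3.

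RefSeq promoters, from 250 bases before to 50 after the start of the gene, were at hand for 8 of the 10 genes. Those of Fmod and Ogn are printed because the levels of these genes differed in direction in some libraries. Those of Chad and Tnmd are printed because their levels went with Fmod (values below). From the age means, Fmod and Ogn deviated in opposite directions in young 3 and in aged 3, 4 and 5. The deviations were 1.38 and -1.11 in aged 3 and -1.67 and 0.04 in aged 4. In the other libraries both deviated in the same direction. Capitals mark the letters CANNTG (an E-box, which reads the same on both strands) and TATAAA on the printed strand. All are from GRCm38.p6, plus strand, at chr1:134037004-134037303, chr13:49607765-49608064, chr11:94564797-94565096 and chrX:133850758-133851057.
Fmod: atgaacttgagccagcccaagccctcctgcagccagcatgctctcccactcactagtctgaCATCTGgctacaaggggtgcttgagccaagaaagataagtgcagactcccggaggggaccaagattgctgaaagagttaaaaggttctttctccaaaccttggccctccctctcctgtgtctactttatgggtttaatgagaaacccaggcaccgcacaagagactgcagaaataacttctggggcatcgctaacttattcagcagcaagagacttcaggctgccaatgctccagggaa
Ogn: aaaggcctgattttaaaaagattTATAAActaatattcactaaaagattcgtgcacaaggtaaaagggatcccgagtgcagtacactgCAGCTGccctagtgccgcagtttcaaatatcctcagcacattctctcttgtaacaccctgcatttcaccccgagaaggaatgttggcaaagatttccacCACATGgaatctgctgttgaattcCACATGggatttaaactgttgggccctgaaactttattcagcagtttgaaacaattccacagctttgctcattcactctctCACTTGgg
Chad: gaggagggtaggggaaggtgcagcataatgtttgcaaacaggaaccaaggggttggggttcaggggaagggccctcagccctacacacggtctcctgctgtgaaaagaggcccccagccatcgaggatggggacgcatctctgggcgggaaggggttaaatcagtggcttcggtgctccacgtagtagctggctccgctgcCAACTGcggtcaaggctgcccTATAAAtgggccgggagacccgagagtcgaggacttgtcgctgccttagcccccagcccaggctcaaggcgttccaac
Tnmd: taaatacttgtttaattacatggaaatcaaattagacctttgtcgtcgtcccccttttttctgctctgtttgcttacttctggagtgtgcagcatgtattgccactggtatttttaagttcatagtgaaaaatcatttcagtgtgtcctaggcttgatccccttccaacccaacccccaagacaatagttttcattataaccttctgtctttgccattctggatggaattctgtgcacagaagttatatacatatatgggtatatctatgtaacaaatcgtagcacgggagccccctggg
CANNTG occurred 1 time in the Fmod window, 4 times in that of Ogn, 1 time in that of Chad and 0 times in that of Tnmd, and it is present in 72.3% of all 32851 promoters. TATAAA, on either strand, is present in 13.6% of them and was found in the windows of Ogn and Chad, and in Ogn the same stretch also reads TATAAA on the other strand. These matches describe the letters in the windows and no binding was measured.

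The depth recovered from the values was 19886365 to 34554360 reads a library, so that an FPKM of 1 on a 1 kb transcript stood for 19.9 to 34.6 reads. The libraries numbered 3 were the deepest in each group and stood apart, with 35024 transcripts above 0 in young 3 and 29878 in aged 3, against 38855 to 43296 in the others. The differences of the members and the counts of the lists that they move are therefore also given without both. The fibroblast markers were present in every library. Their summed FPKM over 14 genes was 431 to 645 in the young and 516 to 629 in the aged libraries, with Dpp4 listed at 0 throughout. Gsn (mean log2 FPKM 8.21 young, 8.06 aged) and Gpx3 (6.27 and 6.75) were the highest of them and weigh most in the sum. It does not measure the number of fibroblasts. In whole muscle, fewer cells of a type and less RNA in each cell cannot be told apart.

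The 10 genes spanned a wide range of levels, and their order was set by the gene more than by age. Dcn, decorin, was the highest with a log2 FPKM of 7.35 ± 0.46 (SD, n = 10), above Sparc in 10 of 10 libraries. Sparc, a collagen-binding matricellular protein, followed at 6.00 ± 0.28, then Fmod (fibromodulin) at 4.99 ± 1.03, Dpt (dermatopontin) at 4.37 ± 0.18 and Bgn (biglycan) at 3.65 ± 0.46. Prelp stood at 3.16 ± 0.59, Ogn (osteoglycin or mimecan) at 2.89 ± 0.55 and Lum (lumican) at 2.34 ± 0.61. Postn (periostin) and Fbn1 (fibrillin-1) were near the lowest listed value at 0.66 ± 0.64 and 0.59 ± 0.32. Some neighbors in this order did not separate in every library: Fmod was above Dpt in 7 of 10, Bgn above Prelp in 7, Prelp above Ogn in 8 and Postn above Fbn1 in 4. Ogn was above Lum in 10 of 10, by 0.54 ± 0.25 (SD).

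**Figure D1:**
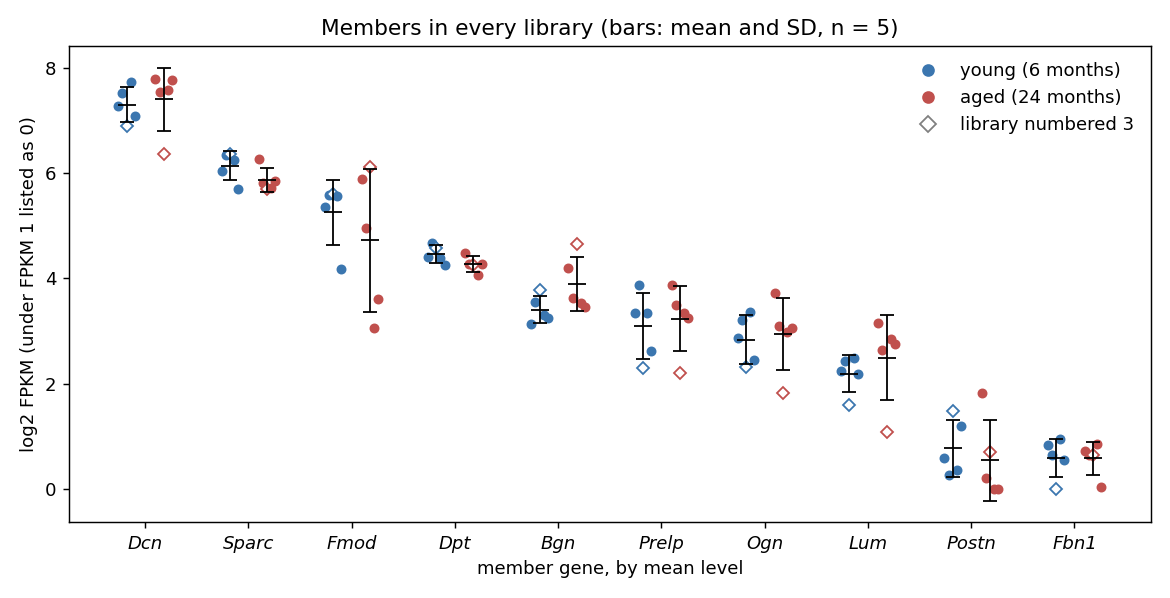
Log2 FPKM (vertical axis) of the 10 genes in every library, with young mice in blue, aged mice in red and open diamonds for the libraries numbered 3. Black bars give the mean and SD of 5 libraries. The age groups overlap for every gene, and the diamonds are the lowest points of their group for Dcn, Lum, Ogn and Prelp.

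No member passed the test for a change with age. None of the 10 passed an adjusted p under 0.05 in limma, where 3 of 38059 transcripts did (0.00788%), and 0 of 10 had an unadjusted p under 0.05, where 4.63% of transcripts did (6.93% with 1 transcript a gene). The groups did not overlap for 0 of the 10, against 1.54% of transcripts. There were 5 genes higher and 5 lower in the aged mean, the median difference was 0.05 on the log2 scale, and that of all transcripts tested was 0.03. Exact permutation tests gave p from 0.0952 for Bgn to 0.976 for Fbn1, where 5 libraries against 5 can give 0.00794 at the lowest. These p set the difference between the age groups against the spread between libraries, 1 for each mouse, so that mouse and library are not separated. The 95% interval of the difference ran from -1.86 to 0.79 on the log2 scale in Fmod, the widest. In Dpt, the narrowest, it ran from -0.51 to 0.14.

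The class I proteoglycans with dermatan sulfate chains, Dcn and Bgn, came out differently from each other. In young 1 to 5, Dcn was 7.28, 7.52, 6.89, 7.72 and 7.09, and in aged 1 to 5 it was 7.79, 7.53, 6.35, 7.57 and 7.78. The lowest value in both groups was in the library numbered 3, and the groups overlapped. The mean difference was 0.10 ± 0.29 (SE; limma, adjusted p = 1.00), and without both libraries numbered 3 it was 0.26 ± 0.16 (SE). Bgn was 3.14, 3.56, 3.77, 3.30 and 3.25 in the young and 4.19, 3.62, 4.65, 3.54 and 3.46 in the aged. Here the libraries numbered 3 were the highest of their group. The difference was 0.49 ± 0.25 (SE), the largest increase among the 10 genes in this fit, with an adjusted p of 1.00 in limma. It was 0.39 without both libraries numbered 3, where Lum had a larger one, 0.30 without aged 3 and 0.10 with the mean over all transcripts of the gene. Aged exceeded young in 5 of 5 same-numbered pairs, and in the fit with the number as a block Bgn had an unadjusted p of 0.041, with 8.17% of transcripts under 0.05 in that fit, and an adjusted p of 0.599 in limma.

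Lum, Ogn and Prelp, which carry keratan sulfate or no chain, were, like Dcn, lowest in the libraries numbered 3. For Prelp this holds at the transcript used, and in young 3 it does not hold at the full-length one (values below). Lum was 2.25, 2.42, 1.60, 2.49 and 2.19 in young 1 to 5 and 3.15, 2.63, 1.09, 2.85 and 2.75 in aged 1 to 5. All aged values but that of aged 3 lay above all young values. With all libraries the difference was 0.31 ± 0.37 (SE), and without both libraries numbered 3 it was 0.51 ± 0.14 (SE), with an unadjusted p of 0.0057 and an adjusted p of 0.249 in limma. Lum was then the 1 member of 10 whose groups did not overlap, as they did not for 8.99% of transcripts, and the 1 of 10 with an unadjusted p under 0.05, as for 12.6% of transcripts. Its exact permutation p of 0.0286 is the smallest that 4 libraries against 4 can give.

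Ogn ranged from 2.31 to 3.36 in the young libraries (median 2.86) and from 1.83 to 3.73 in the aged (median 3.05). Prelp ranged from 2.29 to 3.87 in the young (median 3.33) and from 2.21 to 3.87 in the aged (median 3.35). The groups of both genes overlapped, with differences of 0.10 ± 0.34 and 0.14 ± 0.37 (SE). Without both libraries numbered 3 these were 0.25 and 0.19. Dcn and Lum kept close to each other within a library: the log2 ratio of Dcn to Lum was 5.11 ± 0.16 in the young and 4.91 ± 0.25 in the aged (SD, n = 5).

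Fmod, which binds type I collagen and is abundant in tendon, had the widest spread. It was 5.36, 5.58, 5.61, 5.56 and 4.17 in young 1 to 5 and 5.89, 4.96, 6.11, 3.05 and 3.61 in aged 1 to 5. Aged 4 and 5 and young 5 were low, and the other 7 libraries lay between 4.96 and 6.11. The difference was -0.53 ± 0.60 (SE), with an exact permutation p of 0.397, and it was -0.79 without both libraries numbered 3.

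Of the tendon-associated genes, Chad, Comp and Tnmd were low in the same libraries as Fmod. Scx was also lower there than in the other libraries of its group, but it was above 0 in every library. Chad (chondroadherin), a small leucine-rich proteoglycan of cartilage and tendon, was 2.41 to 3.99 in the young and 4.47, 3.60 and 5.01 in aged 1 to 3, and it was listed at 0 in aged 4 and 5. Comp, a tendon and cartilage matrix protein chosen here after its values were seen, was 1.91 to 3.74 in the young, 3.71 to 4.82 in aged 1 to 3, and listed at 0 in aged 4 and 5. Tnmd (tenomodulin) was likewise listed at 0 in aged 4 and 5 and was 1.72 to 3.12 in aged 1 to 3. In young 5, the low young library for Fmod, all 3 genes were at the lowest value of their group. Scx, a transcription factor of tendon cells, was 1.06 in young 5, the lowest young value, and 1.42 to 2.19 in the other young libraries. In aged 4 and 5 it was 2.27 and 1.89, against 2.41 to 3.55 in aged 1 to 3. The values in aged 4 and 5 were above 5 and 4 of the 5 young libraries, and the aged mean of Scx was higher by 0.92 ± 0.32 (SE). Thbs4 was 4.84 to 5.63 in aged 1 to 3 and 3.59 and 4.06 in aged 4 and 5. Kera was 0.06 in aged 2, 0.00 in aged 4 and 0.43 in aged 5. Cilp2 was listed at 0 in aged 2, 4 and 5. Over the 8 tendon markers the summed FPKM was 37.4 to 93.2 in the young, 64.5 to 132 in aged 1 to 3, and 16.8 and 21.7 in aged 4 and 5, with Mkx listed at 0 throughout. The part of the amount of tendon in the Fmod values was not tested.

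**Figure D2:**
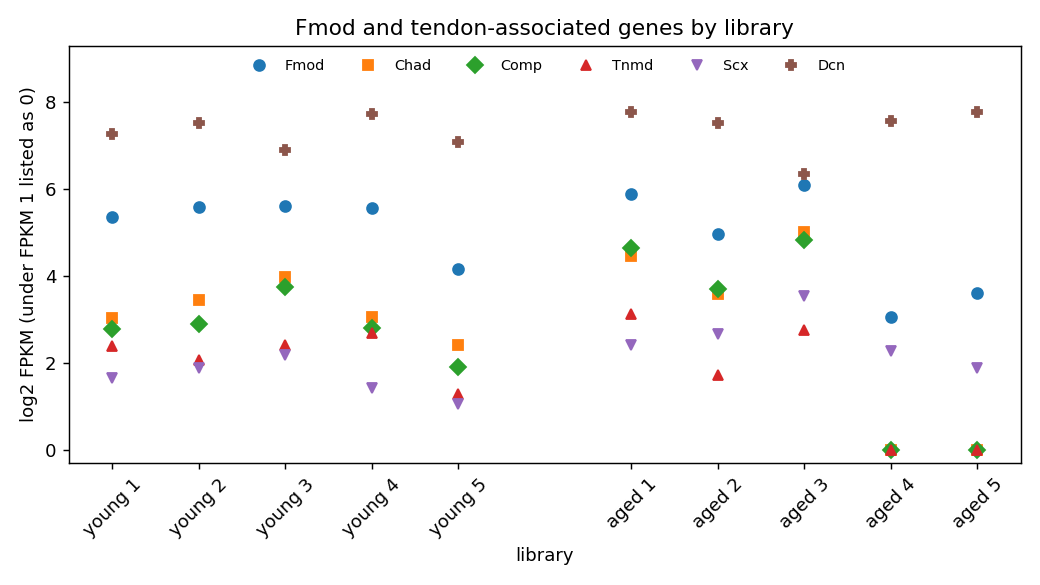
Log2 FPKM (vertical axis) of Fmod, Chad, Comp, Tnmd, Scx and Dcn in each library (horizontal axis), 1 point for each gene and library. In aged 4 and 5, Fmod fell to 3.05 and 3.61 and Chad, Comp and Tnmd were listed at 0, while Dcn was 7.57 and 7.78.

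The 4 matrix genes outside the proteoglycan family all had lower aged means in the values as listed, and none passed the test. Dpt, which promotes collagen fibril formation, was 4.25 to 4.68 in the young (median 4.40) and 4.07 to 4.48 in the aged (median 4.28), a difference of -0.18 ± 0.15 (SE), or -0.15 without both libraries numbered 3. Its SD was the smallest of the 10 genes. Sparc was 6.04, 6.34, 6.36, 6.24 and 5.70 in the young and 6.27, 5.81, 5.70, 5.72 and 5.84 in the aged. Of the 5 aged values, 4 lay under 4 of 5 young values, and the difference was -0.27 ± 0.18 (SE) with an exact permutation p of 0.151, or -0.17 without both libraries numbered 3. Fbn1, the main protein of microfibrils, was 0.00 (listed so in young 3) to 0.94 in the young and 0.04 to 0.85 in the aged. Postn was 0.26 to 1.48 in the young and 0.00 to 1.82 in the aged, with 2 aged libraries listed at 0 and 17 to 63 reads in the rest. The differences were -0.01 and -0.23, or -0.17 and -0.09 without both libraries numbered 3. For these last 2 genes the values lie at the floor of the listing, which can change the size or the direction of a difference. With log2 of FPKM plus 1, where values listed at 0 count as an FPKM of 0, Fbn1 differed by 0.19 and Postn by -0.52.

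**Figure D3:**
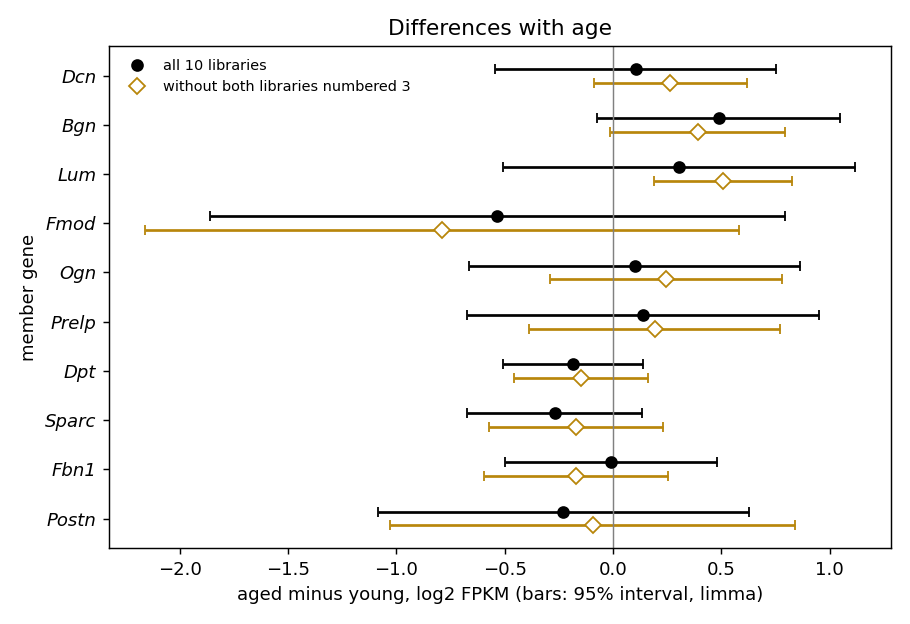
Aged minus young difference of each gene in log2 FPKM (horizontal axis) with its 95% interval from limma, for all 10 libraries (black circles) and without both libraries numbered 3 (open diamonds). All intervals include 0 with 10 libraries, and that of Lum does not without the libraries numbered 3.

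Transcripts of the same gene disagreed in the libraries numbered 3. Lengths recovered from the values were matched to GENCODE transcripts for 24 rows, 7 of them of Postn and 17 of Bgn, Fbn1, Fmod, Prelp and Sparc. Of the 17, the 7 rows whose transcript ends within 100 bases of the 3' end of the gene differed in aged 3 from the mean of the other aged libraries by -0.70 to 1.73 on the log2 scale. The 10 rows ending 886 to 14704 bases short of it all lay lower there, by -3.64 to -1.16. The Postn rows, at or near the lowest listed value, did not show this: the 5 ending 390 to 644 bases short differed by -0.32 to 0.20 in aged 3 and by -0.12 to 0.88 in young 3, and the 2 ending 3 bases short by -0.29 in aged 3. Fmod-001 (3120 bases) was 6.11 in aged 3 and Fmod-002 (532 bases, ending 7803 bases short) was 0.31. Sparc-002 was 5.70 and Sparc-003, ending 4752 bases short, was 2.27. No such match was made for Bgn-001, which was higher in aged 3, nor for the rows of Dcn, Lum and Ogn, which were lower there, or of Dpt. In young 3 the same 10 rows differed from the other young libraries by -1.20 to -0.05. The row that stands for Prelp, Prelp-002, is an 823-base processed transcript that ends 2416 bases short, and the full-length Prelp-001 gave a difference with age of 0.03. Prelp-001 was 2.93 in young 3, within the 2.38 to 3.48 of the other young libraries. In aged 3 it was 2.43, against 2.80 to 3.58 in the other aged libraries. Whether RNA quality differed in these libraries was not tested.

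**Figure D4:**
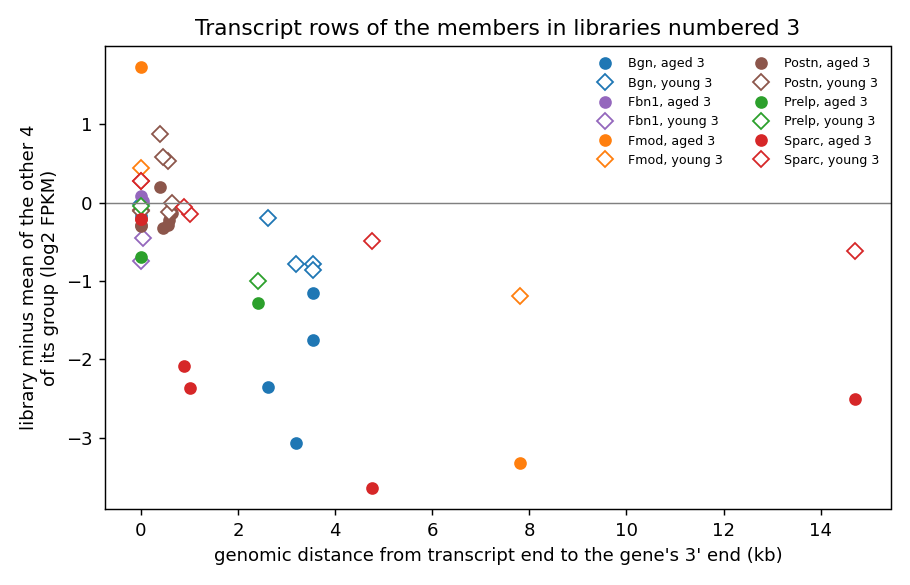
Difference of library 3 from the mean of the other 4 libraries of its group in log2 FPKM (vertical axis) against the genomic distance from the end of the transcript to the 3' end of its gene in kb (horizontal axis), for 24 transcript rows, with aged 3 as filled circles and young 3 as open diamonds. Outside Postn, the 10 rows ending 886 bases or more short lie between -3.64 and -1.16 in aged 3, and the full-length rows between -0.70 and 1.73, while the Postn rows lie between -0.32 and 0.20.

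Set beside the collagens they bind, Dcn, Lum, Ogn and Prelp were higher relative to Col3a1 in the aged libraries. Col3a1, the type III collagen of reticular fibers, was 3.73, 3.88, 3.22, 3.89 and 3.23 in the young and 3.68, 2.98, 1.91, 2.62 and 1.60 in the aged. Its difference was -1.03 ± 0.37 (SE; unadjusted p = 0.019, adjusted p = 1.00 in limma). The log2 ratio of Dcn to Col3a1 was 3.71 ± 0.13 in the young and 4.85 ± 0.80 in the aged (SD, n = 5), and the groups did not overlap, with or without the libraries numbered 3. Lum to Col3a1 was -1.40 ± 0.22 in the young and -0.06 ± 0.78 in the aged. Of the 10 members, 4 (Dcn, Lum, Ogn and Prelp) had ratios to Col3a1 that were higher in all aged than in all young libraries, as did 3.79% of all transcripts tested. Against Col1a1, 0 of 10 members did, and 1.06% of transcripts. These ratios were chosen after the values were seen and carry no test. In aged 3, where Dcn, Lum, Ogn and Prelp were lowest of their group, Col3a1 was 1.91 and Col1a1 was 3.74. Fmod to Col1a1 was 1.72 ± 0.16 in the young and 2.31 ± 0.46 in the aged.

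**Figure D5:**
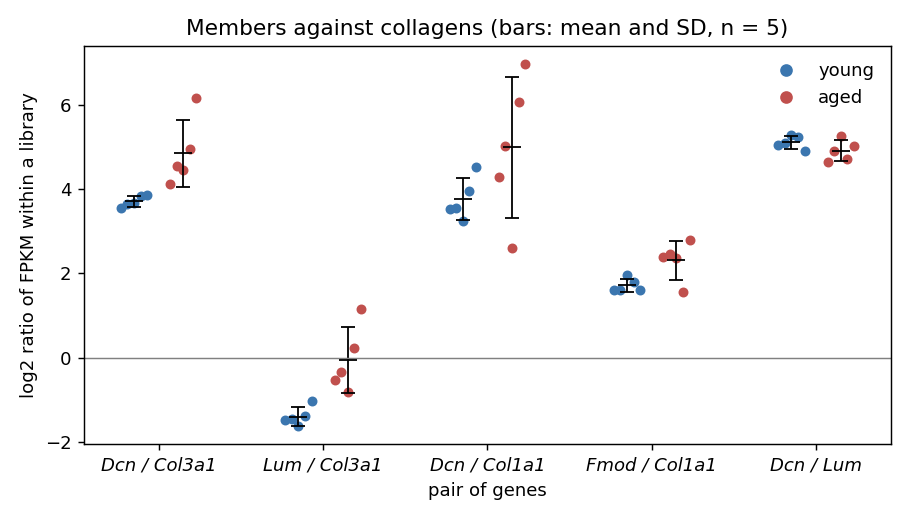
Log2 ratio of FPKM between 2 genes within each library (vertical axis), with young libraries in blue, aged in red, and bars for the mean and SD of 5 libraries. Ratios of Dcn and Lum to Col3a1 do not overlap between the ages, and those of Dcn to Col1a1 and Dcn to Lum do.

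Among the other genes of the pathway no list had a gene with an adjusted p under 0.05 in limma, and counts below are at an unadjusted p under 0.05, to be read against 6.93% of genes. Of the 12 other small leucine-rich proteoglycans, 5 were tested and 0 passed, with a median difference of -0.10 (Kera -0.71, Chad -0.57, Ecm2 -0.10). Of the collagens, 10 of 14 were tested, 2 were lower (Col3a1 and Col5a1) and the median was -0.27. Col1a1, the main chain of type I collagen, differed by -1.12 and Col1a2 by -0.78, or by -1.43 and -1.05 without both libraries numbered 3. For collagen biosynthesis and crosslinking, 0 of 16 passed, with a median of 0.01 (P4hb 0.58, Ppib 0.42, Adamts2 -0.40). In the list of elastic fibers and microfibrils, 2 of 13 were higher, Efemp1 by 0.56 and Fbln5 by 0.43, and Eln, elastin itself, differed by -0.56.

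Matricellular genes held the largest share of higher values among these lists, 5 of 12, with a median of 0.33. Spp1 (osteopontin) was higher by 1.80, Thbs1 (thrombospondin-1) by 1.70 with no overlap between the groups, and Cyr61 by 1.49, with adjusted p of 0.619 or more in limma. Among TGF-beta ligands, receptors and SMADs, 3 of 11 were higher, with a median of 0.31 (Tgfb1, a ligand, by 0.76, with Smad7, an inhibitor of the pathway, at 0.63). For matrix proteases and inhibitors 2 of 8 were higher (Mmp3, and Mmp14 by 0.62, with Timp4 at 0.49). Mmp3 was listed at 0 in all young libraries and in aged 4 and 5, and was 0.90 to 2.31 in aged 1 to 3. For the basement membrane 0 of 12 passed (Lama4 0.81, at a 511-base transcript with 11 to 126 reads, Col4a2 -0.37, Col15a1 -0.37). Of the genes that build glycosaminoglycan chains, 5 of 16 were tested and 0 passed (Chpf 0.42, B3gat3 0.14, B4galt7 -0.13). These counts depended on the fit. The shares given for the other fits are over all transcripts, for which the main fit gave 4.63%. Without both libraries numbered 3, where 12.6% of transcripts had an unadjusted p under 0.05, 3 genes were lower for the collagens, and 3 were higher for collagen biosynthesis, 2 for the basement membrane, 3 for elastic fibers, 1 for proteases and 6 for TGF-beta. With the replicate number as a block, where 8.17% did, 3 were lower for the collagens, and 2 were higher for collagen biosynthesis, 1 for the basement membrane, 1 for elastic fibers, 3 for proteases and 1 for the chain-building genes.

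The macrophage markers summed to 17.8 to 44.5 FPKM in the young and 32.1 to 144 in the aged libraries over 8 genes, with the highest sums in aged 4 and 3 (exact permutation p of the log2 sums 0.0238, not adjusted). Endothelial markers summed to 51.8 to 55.2 and 52.8 to 67.0, and muscle fiber markers to 91814 to 108510 and 83767 to 99929. Their part in the differences above was not tested. The fibroblast markers themselves did not move one way: of 13 tested, 7 were higher and 6 lower, with Smoc2 higher by 0.62 and without overlap (adjusted p = 0.727 in limma), Ly6a by 0.67, Gpx3 by 0.48, and Pdgfra (0.06), Cd34 (0.07), Clec3b (0.02) and Pi16 (-0.09) near 0. Gpx3, read at a 693-base transcript, was lowest in aged 3 (5.39). Without both libraries numbered 3, Gpx3 differed by 0.76 (unadjusted p = 0.00025 in limma), Smoc2 by 0.66 and Ly6a by 0.48. Mfap5 differed by 0.20, Gsn by -0.15 and Thy1 by -0.23. The collagens Col1a1, Col3a1 and Col1a2, also on this list, differed by -1.12, -1.03 and -0.78. At an unadjusted p under 0.05 in limma, 1 marker was higher and 1 lower, to be read against 6.93% of genes. Without both libraries numbered 3, 2 were higher and 3 lower, where 12.6% of transcripts passed. The median difference was 0.02 with all libraries and -0.15 without these. No marker had an adjusted p under 0.05 in either fit.

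The genes whose deviations from the age means were most like the mean of the 10 members, among 8216 genes above 0 in all libraries and outside the lists, were Tm7sf3 (Pearson r = 0.92), Ntn1 (0.91), Gas1 (0.88), Eid1 (0.88) and Lix1l (0.87), over 10 libraries. Aged 1 was highest in the aged group for all 5 of these genes, as it was for 7 of the 10 members. Without both libraries numbered 3, the same r were 0.92, 0.95, 0.87, 0.93 and 0.87. The values share their libraries and depth, and the correlations are given as a description.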

How the data were processed

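The mRNA libraries of 10 mice were analysed. Per the methods and labels, the authors selected poly-A RNA, aligned paired-end reads to mm10 using TopHat2, computed FPKM and deposited the log2 of FPKM for each library, unpooled. The methods name a RefSeq model, whereas the values carry Ensembl and Vega transcript names. The counting program is not given in the sources used here. Members, gene lists and tests were chosen with earlier results of these data known.

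A gene is its name without the final dash and 3 digits, read at the transcript with the highest mean. limma 3.58.1 (lmFit and eBayes, R 4.3.3) was run on 38059 transcripts whose mean FPKM reached 1, values listed at 0 counted as 0, with Benjamini-Hochberg adjustment and a threshold of 0.05. It was checked on simulated data. For a single gene, an exact permutation test (two-sided) was used. Genes named were all members, the 3 largest differences of each list, every fibroblast marker and the 5 genes most like the members. Col5a1, Comp, Thbs4 and Cilp2, outside that rule, were chosen after their values were seen.

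Depths and transcript lengths came from the steps between values. They gave whole reads (within 0.02) in every library for 491 of the 531 transcripts above 0 of the genes listed. Depths were used to describe the libraries and the precision of the values. Lengths were also used to match transcripts to GENCODE, on which the distances to the 3' end rest. Neither entered a test of age. Numbers 1 to 5 occur in both groups. Same-numbered libraries deviated together (r = 0.131, 0.332, 0.695, 0.390 and 0.208), a link seen in the data and not stated in the labels. The study's test used no pairing, so neither do the limma results nor the exact tests, and the fit with the number as a block is an alternative. Alternatives were another scaling, pseudocount, filter or test, the block, the mean over all transcripts of a gene and leaving out libraries. Lists of satellite cell, smooth muscle, adipocyte and blood markers were summed as well. Positions and promoters are RefSeq GRCm38.p6, and transcript ends GENCODE vM21. Python 3.11.15 was used. The small RNA libraries were not analysed here, and some genes of the lists are not reported here.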

Additional observations from a re-analysis of the deposited data

Results flagged for a closer look

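A sample was flagged where its gap to the nearest of the other 4 libraries of its age exceeded 0.71 of the range of the group. Chance flags about 1 in 20 groups. Of the 20 groups of the members, 5 held such a library, and of 144 groups over the 72 genes checked, 16 did.

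Among the members, Dcn in aged 3 was 6.35 against 7.53 to 7.79 in the other aged libraries, and Lum in aged 3 was 1.09 against 2.63 to 3.15. Fmod in young 5 was 4.17 against 5.36 to 5.61, and Col1a1 was 2.55 and Mmp14 was 0.88 in the same library, both the lowest of the young. Sparc in aged 1 was 6.27 against 5.70 to 5.84, and Fbn1 in aged 5 was 0.04 against 0.65 to 0.85.

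Among the other genes, aged 3 was high for P4hb (7.79) and Cilp2 (1.62) and low for Gpx3 (5.39). Young 3 was high for Lama4 (2.12) and Cilp2 (1.27). These values are at the transcript used for each gene. In aged 3, Gpx3-003, the one used, had 926 reads against 1820 to 2904 in the other aged libraries. Gpx3-001 had 6026 reads there against 3374 to 4599. In young 3, Lama4-007, the one used, had 77 reads against 11 to 16 in the other young libraries. Lama4-001 had 310 reads there against 191 to 309. Both libraries numbered 3 were the deepest of their groups. Ecm2 was 1.99 in young 4, Cd68 was 0.29 in young 2 with the other young libraries listed at 0, B4galt7 was 0.38 in aged 5 and Gsn was 7.53 in aged 4.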

How the results depend on the processing

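Each difference was recomputed under 21 alternatives. None gave a member an adjusted p under 0.05 in limma, the lowest being 0.249 (Lum without both libraries numbered 3), and the count of members called stayed at 0. The fit with the replicate number as a block, the pairing, moved the count of members with an unadjusted p under 0.05 from 0 to 1 (Bgn), as did leaving out both libraries numbered 3 (1, Lum), and leaving out 1 library gave counts from 0 to 1, with 1 without aged 3 (Lum) or aged 5 (Bgn). Dcn, Bgn, Lum, Fmod, Dpt and Sparc kept their direction throughout, though not their size: without 1 library Dcn ranged from 0.002 (young 3) to 0.367 (aged 3), with 0.008 without aged 1, and Bgn from 0.298 (aged 3) to 0.595 (aged 5), and the mean over all transcripts gave 0.104 for Bgn and -0.955 for Fmod. Differences that changed sign were those of Ogn (-0.03 without young 3 and -0.10 without aged 1, in a range of -0.096 to 0.378 without 1 library), Prelp (-0.063 and -0.021 without the same libraries, in a range of -0.063 to 0.393), Postn (0.029 with the mean over all transcripts) and Fbn1 (0.05, 0.00 and 0.08 without young 1, 2 and 4, 0.13 without aged 5, in a range of -0.156 to 0.127, 0.193 with log2 of FPKM plus 1 and 0.054 with quantile normalization). Fbn1 and Postn gave no value with a filter for values above 0 in all libraries. Without 1 library, Lum ranged from 0.142 (aged 1) to 0.657 (aged 3) and Fmod from -0.880 (aged 3) to -0.115 (aged 4). An FPKM under 1 is not seen, which limits Fbn1 and Postn.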

Other observations

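The summed markers of several other cell types overlapped between the ages. Smooth muscle and pericyte markers summed to 72.2 to 111 FPKM in the young and 83.6 to 117 in the aged libraries, satellite cell markers to 5.62 to 7.49 and 4.72 to 7.86, with Pax7, Myf5 and Calcr listed at 0 in all libraries. Adipocyte markers summed to 15.1 to 120 in the young and 25.4 to 90.1 in the aged and blood markers to 170 to 381 and 180 to 729.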
